A study of Mus musculus with 35 samples.

Results

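A set of 10 genes of the transcriptional circuit that sets oxidative and fatty acid metabolism in the heart were followed in messenger RNA of the mouse heart apex. They were the coactivator genes Ppargc1a, Ppargc1b and Perm1, the estrogen-related receptor (ERR) genes Esrra, Esrrb and Esrrg, the peroxisome proliferator-activated receptor (PPAR) genes Ppara and Ppard, and Tfam and Nrf1. They were chosen by name, and all 10 were among the 27012 genes of the deposited table and among the 13695 genes tested, those with a mean normalized count of at least 10. All mice were of the C57Bl/6/FVB strain and 6 weeks old at operation, and hearts were taken on day 3 after a sham operation or after tying the aorta to a smaller bore (transaortic constriction, TAC), which loads the left ventricle with pressure. WT mice carried the IRS2-flox allele without Cre, IRS1KO mice carried alphaMHC-Cre with IRS1-flox, and IRS2KO mice carried alphaMHC-Cre with IRS2-flox. Because alphaMHC-Cre acts in cardiomyocytes, the other cells of these hearts keep the floxed gene. Because WT had no Cre, loss of the gene and presence of Cre cannot be told apart in a comparison with WT. There were 6 libraries in each of the 6 groups, except 5 for TAC in WT.

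PGC-1 coactivators have no DNA-binding domain of their own and work by docking onto nuclear receptors and other factors bound at their target genes. In heart muscle the ERR proteins, orphan nuclear receptors, switch on genes of the respiratory chain and the tricarboxylic acid cycle, and PPAR proteins, nuclear receptors that bind fatty acids, switch on genes of fatty acid uptake and oxidation. Perm1 is a muscle protein induced by PGC-1 and ERR proteins, Nrf1 (nuclear respiratory factor) acts on nuclear genes of mitochondrial proteins, and Tfam packages mitochondrial DNA and starts its transcription.

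The libraries held 11707111 to 14609467 reads counted in genes, and the 10 genes had between 95 (Nrf1) and 4791 (Perm1) reads in any library. Nothing in the labels ties a library to its own mouse, so p-values here cover only the spread from library to library, which may be technical. Irs1 was lower in IRS1KO than in WT, with 25.9 ± 15.1 against 233 ± 52.5 normalized counts in sham hearts (SD, n = 6 each, limma adjusted p = 0.00043). Irs2 was at 123 ± 14.4 in IRS2KO sham hearts and 217 ± 174 in WT sham hearts, a difference that did not pass the test (limma adjusted p = 1), nor did that after TAC (log2 difference -0.99, unadjusted p = 0.0095, adjusted p = 0.70). Against IRS1KO, Irs2 was lower in IRS2KO in sham and in TAC hearts (log2 difference of IRS1KO against IRS2KO 1.31 and 1.48, limma adjusted p = 0.012 and 0.0095). Irs2 thus ran in the direction of the IRS2KO label in each of these comparisons, but passed against IRS1KO only. Which part of the gene the flox sites enclose is not stated in the sources used here. All 10 cardiomyocyte markers were abundant in every group (lowest group mean of any marker, 18342 normalized counts). Atrial markers were far lower, with a summed level of 119.6 to 476.8 over 4 genes in any library. The highest sum was in a WT sham library, where the group median was 192.8.

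Promoter windows from RefSeq were searched for 9 of the 10 genes, and Ppargc1b was left out of that search. Of the 9 genes, 5 are shown because they hold a searched motif and cover each class of regulator. Each window runs from 250 bases before to 50 bases after the annotated start on the gene's own strand, in build GRCm38.p6, and capitals mark the motif matches.
Perm1, chr4:156215677-156215976, plus strand: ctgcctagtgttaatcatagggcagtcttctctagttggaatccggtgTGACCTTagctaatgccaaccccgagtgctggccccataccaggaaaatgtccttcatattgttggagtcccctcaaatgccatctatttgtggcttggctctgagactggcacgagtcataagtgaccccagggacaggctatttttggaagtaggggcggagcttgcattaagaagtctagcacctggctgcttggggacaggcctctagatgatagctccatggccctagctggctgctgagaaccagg
Ppargc1a, chr5:51567676-51567975, minus strand: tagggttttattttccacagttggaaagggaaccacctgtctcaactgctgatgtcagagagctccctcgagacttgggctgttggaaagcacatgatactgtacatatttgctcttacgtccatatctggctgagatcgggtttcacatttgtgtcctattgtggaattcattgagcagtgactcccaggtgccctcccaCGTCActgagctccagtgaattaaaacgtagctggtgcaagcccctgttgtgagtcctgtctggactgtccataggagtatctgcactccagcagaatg
Esrrg, chr1:187608756-187609055, plus strand: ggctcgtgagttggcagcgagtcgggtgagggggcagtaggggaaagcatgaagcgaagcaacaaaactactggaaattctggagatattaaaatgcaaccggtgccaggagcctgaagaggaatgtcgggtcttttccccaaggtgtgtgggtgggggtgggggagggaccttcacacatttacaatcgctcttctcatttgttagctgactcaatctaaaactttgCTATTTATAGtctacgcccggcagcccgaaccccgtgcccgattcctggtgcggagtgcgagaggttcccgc
Ppara, chr15:85735526-85735825, plus strand: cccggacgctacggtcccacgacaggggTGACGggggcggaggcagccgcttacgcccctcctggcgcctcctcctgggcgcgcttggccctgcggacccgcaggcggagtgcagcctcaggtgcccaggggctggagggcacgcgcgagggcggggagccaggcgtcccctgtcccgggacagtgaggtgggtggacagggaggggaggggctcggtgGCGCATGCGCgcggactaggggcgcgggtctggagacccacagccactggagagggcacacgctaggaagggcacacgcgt
Tfam, chr10:71237995-71238294, minus strand: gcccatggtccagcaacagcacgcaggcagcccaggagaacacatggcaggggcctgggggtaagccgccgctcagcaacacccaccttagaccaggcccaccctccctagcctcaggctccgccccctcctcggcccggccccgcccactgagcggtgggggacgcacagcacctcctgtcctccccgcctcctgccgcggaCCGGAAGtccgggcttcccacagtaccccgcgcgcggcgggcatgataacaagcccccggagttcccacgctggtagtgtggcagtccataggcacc
The 7 motifs were searched on both strands in the 14 windows of the 9 genes and in 32851 RefSeq windows. These 32851 windows leave out the chromosome that holds Ppargc1b and are called all windows below. The Perm1 window holds, on its other strand, AAGGTCA, the core that ERR proteins and other nuclear receptors bind, 202 bases before the start; this core occurs in 1 of the 14 windows and in 4.718% of all windows. Its extended form TNAAGGTCA, which contains the core, occurs in 0 of the 14 windows and in 1.282% of all, and the PPAR form, AGGTCA repeated after any 1 base, in 0 of the 14 and in 0.03957% of all. TGACG, the core of the cyclic AMP response element, lies in the Ppargc1a, Esrrb, Ppara and Ppard windows, 4 of 14 against 20.81% of all windows. The core bound by Nrf1, GCGC and TGCGC with any 1 base between, occurs in the Ppara window only among the 14, 31 bases before the start, and in 4.603% of all. CCGGAAG, bound by ETS factors such as GABP, lies 47 bases before the Tfam start (1 of 14 windows, 8.858% of all). The MEF2 core, CTA and TAG with any 4 bases between, lies 22 bases before the start in the Esrrg window shown, which is 1 of 4 annotated starts of that gene (1 of 14 windows, 3.686% of all).

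The genes were compared with each other by level per kilobase of exon in WT sham hearts. The length took in every annotated exon of a gene, and which transcripts these hearts held was not tested. The order and the shares below depend on that length. By counts alone Ppargc1a (1810 ± 264) was above Esrra (1281 ± 66.1). Perm1 was the highest at 1212 ± 109 normalized counts per kilobase (SD, n = 6). Esrra at 292 ± 15.1 and Ppargc1a at 275 ± 40.1 followed, and their ranges over libraries overlapped. Tfam at 121 ± 7.56, Ppara at 113 ± 15.7 and Esrrg at 106 ± 9.73 came next, each overlapping its neighbour. Esrrb at 88.3 ± 6.56, Ppargc1b at 66.1 ± 8.97, Ppard at 45.7 ± 2.80 and Nrf1 at 12.9 ± 1.69 completed the order with no overlap between neighbours. Esrra thus made up 60.1% ± 1.04 of the ERR sum per kilobase in WT sham hearts, Esrrg 21.8% ± 1.47 and Esrrb 18.2% ± 0.90, and Ppargc1a made up 80.4% ± 3.10 of the sum of Ppargc1a and Ppargc1b.

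**Figure D1:**
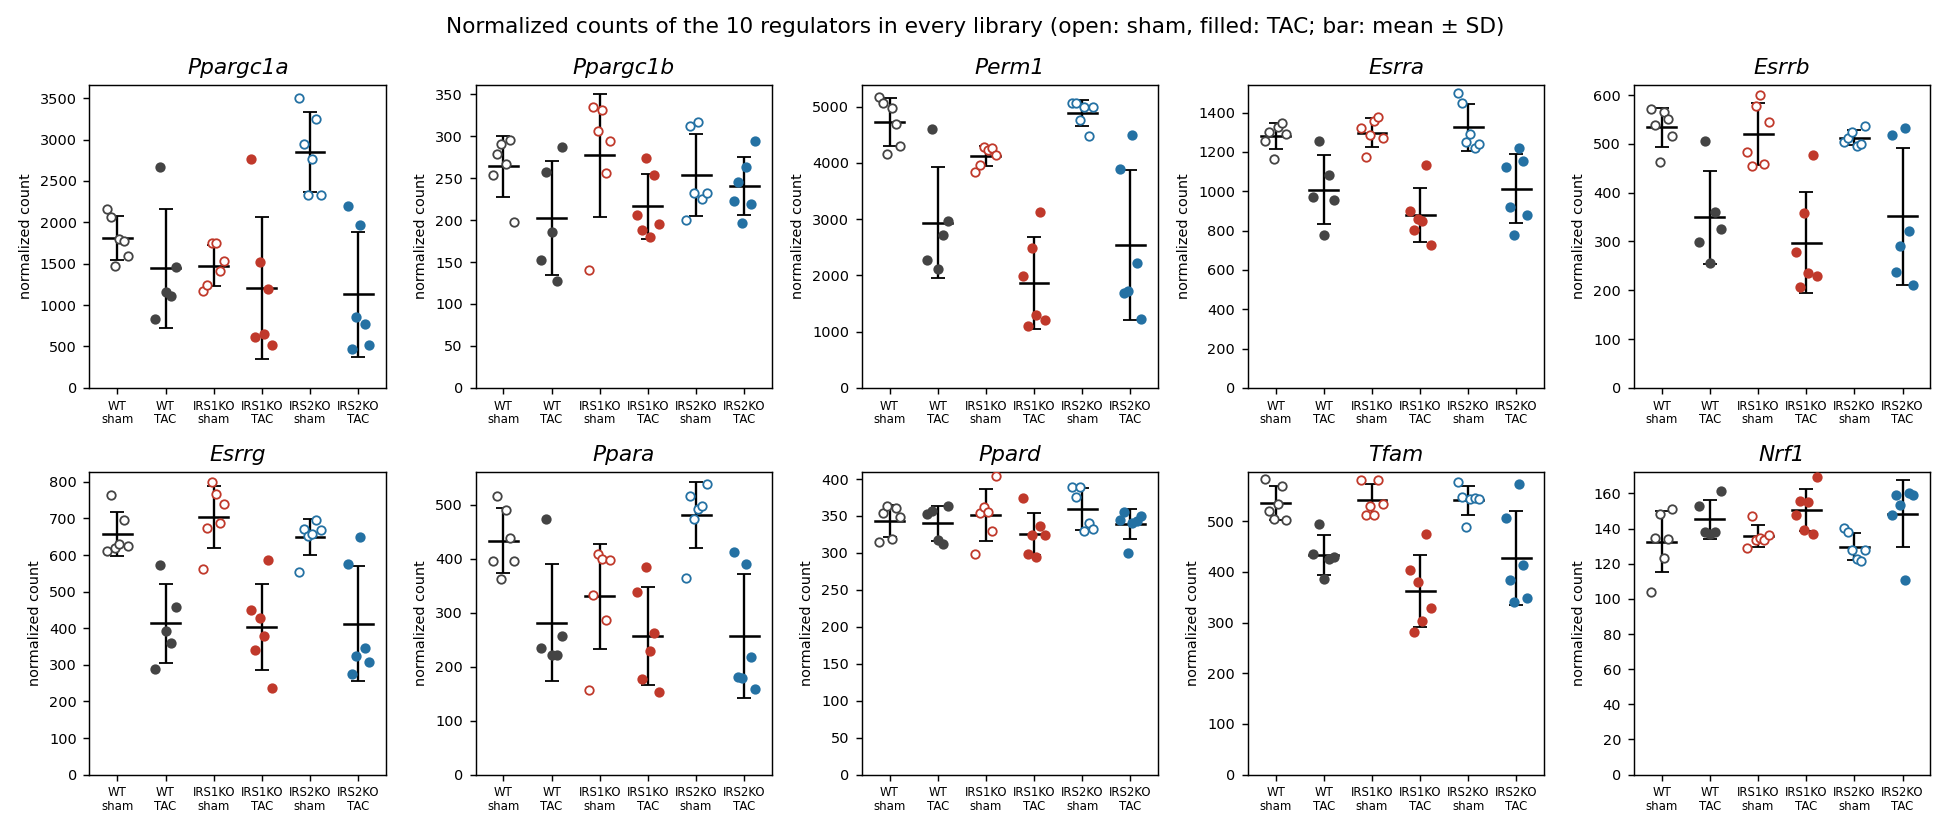
Normalized count (vertical axis, from 0) of each of the 10 regulators in every library, by genotype and operation; open circles are sham libraries, filled circles TAC libraries, and bars the mean ± SD. Perm1, the 3 ERR genes and Tfam are lower after TAC in all 3 genotypes, and Ppargc1a in IRS2KO sham hearts is above every WT sham library. Ppargc1b, Ppard and Nrf1 show no call for TAC against sham in any genotype.

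Perm1, the 3 ERR genes and Tfam were lower in all 3 genotypes on day 3 after TAC. The limma test (adjusted p under 0.05 over all 13695 genes) called 6 of the 10 lower and 0 higher in WT, 5 lower and 0 higher in IRS1KO, and 7 lower and 0 higher in IRS2KO. Over all tested genes the shares called lower were 26.6% in WT, 31.7% in IRS1KO and 31.1% in IRS2KO, and the shares called higher 28.3%, 32.4% and 31.3%. Besides those 5 genes, Ppara was called lower in WT and IRS2KO, and Ppargc1a in IRS2KO. The median log2 fold change of the 10 genes was -0.43 in WT, -0.56 in IRS1KO and -0.52 in IRS2KO, against -0.01 over all genes in each genotype. These counts rest on the deposited scaling. With all library totals made equal, the median of all genes moved to 0.24, 0.30 and 0.33 in WT, IRS1KO and IRS2KO. The share of calls that were higher then moved from between 50.2% and 51.6% to between 76.8% and 79.7%. Of the 10 genes, 3, 5 and 4 were then called lower and 2 higher in each genotype. Over all 13695 genes, 1583, 2164 and 1890 were then called lower and 6221, 7181 and 7438 higher. With a weight per library, which counts libraries far from their group less, limma called 9 of the 10 lower in IRS1KO and 1, Nrf1, higher. The calls gained there were Ppargc1a (-0.92, limma adjusted p = 0.0022), Ppargc1b (-0.55, 0.0023), Ppara (-0.69, 0.00092), Ppard (-0.19, 0.011) and Nrf1 (0.18, 0.037). The weights raised the calls over all 13695 genes as well, to 4833 lower and 4857 higher in IRS1KO, from 4335 and 4442.

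**Figure D2:**
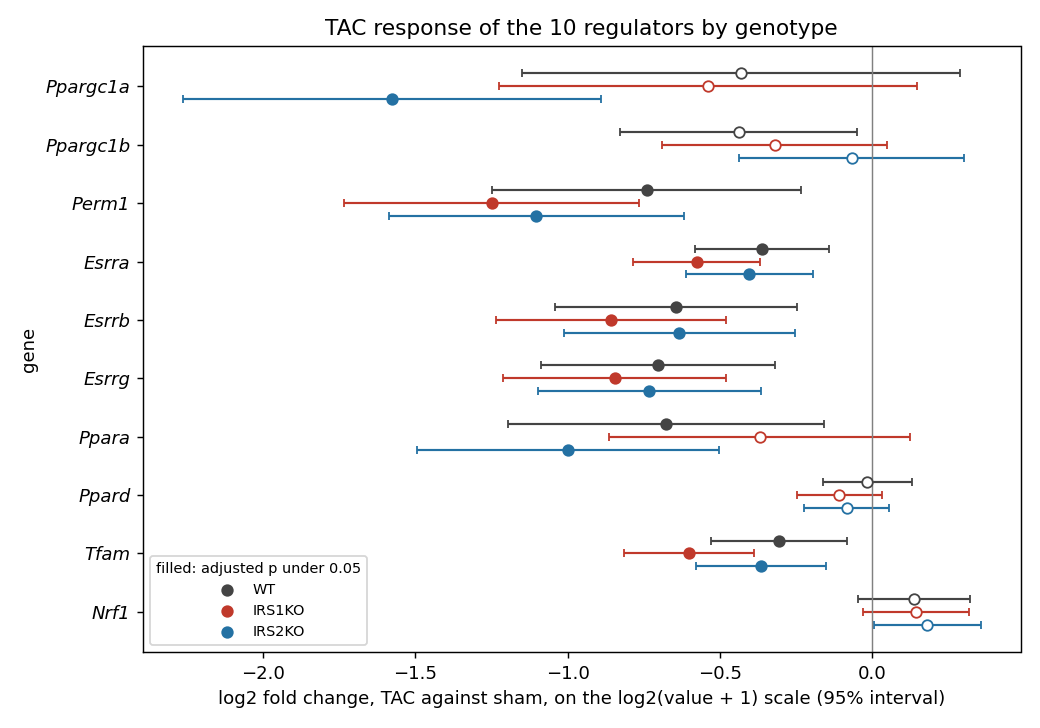
Log2 fold change, TAC against sham, on the log2(value + 1) scale (horizontal axis) with its 95% interval for each regulator, by genotype; filled points passed the adjusted threshold of 0.05. Perm1, Esrra, Esrrb, Esrrg and Tfam lie below 0 in all 3 genotypes, and Ppargc1a spreads from -0.43 in WT to -1.58 in IRS2KO.

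Ppargc1a encodes PGC-1alpha, the coactivator of the family most tied to mitochondrial gene activation. In WT it ranged from 1471 to 2157 in sham hearts (median 1790), and the 5 TAC libraries held 832, 2668, 1158, 1109 and 1461 normalized counts. In IRS1KO it ran from 1169 to 1746 (median 1475) in sham and from 517 to 2759 (median 919) after TAC. In IRS2KO it ran from 2324 to 3502 (median 2853) in sham and from 468 to 2194 (median 818) after TAC. TAC and sham libraries did not overlap in IRS2KO; in WT and IRS1KO, 4 of 5 and 3 of 6 TAC libraries were below all sham libraries and 1 TAC library was above them all. The fall in IRS2KO was 1.58 on the log2 scale (SE 0.34, limma adjusted p = 0.00017), a mean of 1131 ± 754 against 2851 ± 480 (SD, n = 6 each). The log2 fold changes of -0.43 in WT (SE 0.35, 95% interval -1.15 to 0.29, adjusted p = 0.31) and -0.54 in IRS1KO (SE 0.34, 95% interval -1.22 to 0.15, adjusted p = 0.16) did not pass. In IRS1KO the value rested on replicate 1 at 2759: without it the log2 fold change was -0.83 and passed (limma adjusted p = 0.023). The spread after TAC was wide in every genotype, with a coefficient of variation of 49.7% to 70.8% against 14.6% to 16.9% in sham.

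Ppargc1b, the gene of the second coactivator PGC-1beta, did not pass in any genotype. In WT its sham libraries ran from 198 to 296 (median 273) and its TAC libraries were at 153, 257, 186, 128 and 287 normalized counts, so the groups overlapped. Its log2 fold change was -0.44 (SE 0.19, limma adjusted p = 0.052) in WT, -0.32 (SE 0.18, adjusted p = 0.13) in IRS1KO and -0.07 (SE 0.18, 95% interval -0.44 to 0.30, adjusted p = 0.77) in IRS2KO. Single libraries moved it past the threshold. In WT the limma adjusted p was 0.021 without TAC replicate 2, 0.013 without TAC replicate 6 and 0.028 without sham replicate 6. Without IRS1KO sham replicate 1, the library at 140, the IRS1KO log2 fold change was -0.50 (limma adjusted p = 0.0076). The share of Ppargc1a in the sum of both genes per kilobase was 87.0% ± 2.87 in IRS2KO sham hearts and 68.9% ± 14.1 in IRS2KO TAC hearts, and 80.4% ± 3.10 and 80.3% ± 4.66 in WT.

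Perm1, the most abundant of the 10 per kilobase, fell in every genotype. WT sham libraries ran from 4152 to 5178 (median 4833) and WT TAC libraries were at 2280, 4599, 2116, 2709 and 2972 normalized counts. IRS1KO ran from 3843 to 4274 (median 4180) in sham and from 1100 to 3130 (median 1643) after TAC, with no overlap. IRS2KO ran from 4473 to 5064 (median 4992) in sham and from 1227 to 4488 (median 1971) after TAC, where 5 of 6 TAC libraries were below all sham libraries. It dropped by 0.74 in WT (SE 0.25, limma adjusted p = 0.013), by 1.25 in IRS1KO (SE 0.24, adjusted p = 3.6e-05) and by 1.10 in IRS2KO (SE 0.24, adjusted p = 0.00019) on the log2 scale, or 1.61-fold, 2.20-fold and 1.92-fold lower by means. The highest TAC library for Perm1 in each genotype (WT replicate 2, IRS1KO replicate 5, IRS2KO replicate 4) was also the TAC library nearest to its sham mean over the tested genes. Without those 3 libraries, a choice made after seeing the data, the log2 fold changes of Perm1 were -0.92, -1.42 and -1.30.

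The ERR genes fell together in all 3 genotypes, by unequal amounts. Esrra, the gene of ERRalpha, ran from 1162 to 1348 (median 1295) in WT sham hearts and was at 969, 1256, 777, 1085 and 956 normalized counts in WT TAC hearts. In IRS1KO the 6 TAC libraries, from 726 to 1132 (median 854), were all below the sham libraries, from 1172 to 1376 (median 1304). In IRS2KO the TAC libraries, from 780 to 1221 (median 1021), overlapped the sham libraries, from 1218 to 1502 (median 1273), by 1 library. Esrra had the smallest fall of the 3 ERR genes, 0.36 in WT (SE 0.11, limma adjusted p = 0.0058), 0.57 in IRS1KO (SE 0.10, adjusted p = 1.5e-05) and 0.40 in IRS2KO (SE 0.10, adjusted p = 0.0011) on the log2 scale. With libraries scaled to the same total the calls in WT and IRS2KO were lost (log2 fold changes -0.10 and -0.07).

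Esrrb, the gene of ERRbeta, ran from 464 to 571 (median 544) in WT sham hearts and was at 300, 507, 257, 360 and 326 normalized counts in WT TAC hearts. It ran from 454 to 601 in IRS1KO sham and from 207 to 477 after TAC, and from 496 to 536 in IRS2KO sham and from 212 to 532 after TAC, so 1 or 2 TAC libraries in each genotype reached the sham range. Its log2 fold change was -0.64 in WT (SE 0.20, limma adjusted p = 0.0064), -0.86 in IRS1KO (SE 0.19, adjusted p = 0.00019) and -0.63 in IRS2KO (SE 0.19, adjusted p = 0.0040). The IRS2KO call was lost with libraries scaled to the same total (-0.30, adjusted p = 0.069). Esrrg, the gene of ERRgamma, ran from 612 to 765 (median 627) in WT sham hearts, above all 5 WT TAC libraries at 287, 573, 391, 360 and 457 normalized counts. In IRS1KO it ran from 561 to 800 in sham and from 238 to 588 after TAC, and in IRS2KO from 555 to 696 in sham and from 275 to 648 after TAC. Its log2 fold change was -0.70 in WT (SE 0.19, limma adjusted p = 0.0025), -0.85 in IRS1KO (SE 0.18, adjusted p = 0.00015) and -0.73 in IRS2KO (SE 0.18, adjusted p = 0.00079). The sum of the 3 ERR genes per kilobase went from 486 ± 25.6 to 354 ± 67.9 in WT, from 495 ± 29.6 to 314 ± 65.5 in IRS1KO and from 492 ± 21.6 to 356 ± 83.2 in IRS2KO. The share of Esrra in it went from 60.1% ± 1.04 to 65.0% ± 3.49 in WT, from 59.8% ± 2.89 to 64.2% ± 3.59 in IRS1KO and from 61.4% ± 2.95 to 65.8% ± 5.88 in IRS2KO.

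Ppara, the gene of the fatty acid receptor PPARalpha, fell in WT and IRS2KO. WT sham libraries ran from 363 to 517 (median 417), and the WT TAC libraries were at 235, 473, 221, 222 and 257 normalized counts, so replicate 2 alone lay in the sham range. IRS2KO ran from 364 to 538 (median 495) in sham and from 159 to 413 (median 200) after TAC. IRS1KO ran from 157 to 409 (median 365) in sham and from 152 to 384 (median 246) after TAC, with wide overlap. The log2 fold change was -0.68 in WT (SE 0.26, limma adjusted p = 0.026), -1.0 in IRS2KO (SE 0.24, adjusted p = 0.00069) and -0.37 in IRS1KO (SE 0.24, 95% interval -0.86 to 0.13, adjusted p = 0.19). Without IRS1KO sham replicate 1, at 157, the IRS1KO value was -0.57 and passed (limma adjusted p = 0.034). The WT call was lost without WT sham replicate 2 (adjusted p = 0.052) or WT TAC replicate 1 (0.059), 3 (0.067) or 5 (0.065), and with libraries scaled to the same total (0.10).

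Ppard, the gene of the more widely expressed PPARdelta, did not pass in any genotype. It ran from 315 to 363 (median 351) in WT sham hearts, and the WT TAC libraries were at 352, 356, 317, 312 and 363 normalized counts. Its log2 fold change was -0.01 in WT (95% interval -0.16 to 0.13, limma adjusted p = 0.88), -0.11 in IRS1KO (-0.25 to 0.03, adjusted p = 0.18) and -0.08 in IRS2KO (-0.22 to 0.06, adjusted p = 0.30). Against libraries scaled to the same total it was higher instead, by 0.24, 0.20 and 0.25 (limma adjusted p = 0.015, 0.027 and 0.0059), about the shift of the median of all genes under that scaling.

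Tfam, the mitochondrial DNA packaging and transcription factor, fell in every genotype. WT sham libraries ran from 502 to 583 (median 527), above all 5 WT TAC libraries at 435, 494, 386, 425 and 428 normalized counts. IRS1KO went from between 512 and 582 to between 282 and 474, again without overlap, and IRS2KO from between 489 and 577 to between 340 and 573. The log2 fold change was -0.31 in WT (SE 0.11, limma adjusted p = 0.020), -0.60 in IRS1KO (SE 0.11, adjusted p = 1.1e-05) and -0.36 in IRS2KO (SE 0.11, adjusted p = 0.0034). The WT call was lost without WT TAC replicate 3 (limma adjusted p = 0.061), and the WT and IRS2KO calls were lost with libraries scaled to the same total (-0.05 and -0.03). Nrf1 had the opposite sign in every genotype without passing: 133 ± 17.4 in sham and 145 ± 11.1 after TAC in WT, 136 ± 6.11 and 151 ± 12 in IRS1KO, and 130 ± 7.74 and 148 ± 19.0 in IRS2KO (SD, n = 6, or 5 for WT TAC). Its log2 fold changes were 0.14, 0.15 and 0.18 (limma adjusted p = 0.19, 0.14 and 0.063). In IRS2KO, 5 of 6 TAC libraries were above all sham libraries and replicate 4, at 111, below them all. Without that library the value was 0.26 and passed (limma adjusted p = 0.0039). edgeR on the recovered reads called it with all libraries (adjusted p = 0.043).

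By range over libraries, TAC lay wholly below sham for Esrrg and Tfam in WT, for Perm1, Esrra and Tfam in IRS1KO and for Ppargc1a in IRS2KO, that is 2, 3 and 1 of the 10 genes. Over all tested genes the same held for 14.3%, 16.7% and 13.6%.

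Cell markers moved in the same comparisons. Of the 10 cardiomyocyte markers, 9 were called lower in WT, 7 in IRS1KO and 8 in IRS2KO (median log2 fold change -0.66, -0.84 and -0.74), and Actc1, cardiac alpha-actin, was called higher in IRS2KO (0.28, limma adjusted p = 0.018). With libraries scaled to the same total 5 were lower and 1 higher in each genotype. Quantile normalization called 2 lower and 2 higher in WT (median -0.17), 5 and 3 in IRS1KO (-0.26), and 5 and 2 in IRS2KO (-0.28). Their summed level ran from 1013050 to 1133400 in WT sham and from 594976 to 995141 in WT TAC hearts. In IRS1KO the sums ran from 1001320 to 1099090 and from 483519 to 842604, and in IRS2KO from 1032850 to 1093690 and from 512028 to 1021780. Fibroblast markers were called higher for 7, 6 and 6 of 8 genes in WT, IRS1KO and IRS2KO, with sums of 11624 to 13578 in WT sham and 49978 to 112968 in WT TAC hearts. Dcn, the gene of the matrix proteoglycan decorin, was the fibroblast marker called lower, in IRS1KO and IRS2KO (-0.36 and -0.53, limma adjusted p = 0.022 and 0.0015). Macrophage markers were called higher for 9, 8 and 8 of 9 genes, with sums of 2915 to 3607 and 7344 to 20607. Endothelial markers were called lower for 6, 8 and 7 of 8 genes, with sums of 14106 to 15273 in WT sham and 9593 to 13678 in WT TAC hearts. The part of these shifts in the results for the regulators was not tested, and in bulk tissue fewer cells of a type and less RNA per cell cannot be told apart. No marker of these 4 lists was at 0 in a whole group.

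Between genotypes no regulator was called in any of the 6 comparisons within sham or within TAC. The limma test at adjusted p under 0.05 called 0 of the 10 in sham, against 4.65% of all genes for IRS1KO against WT, 0% for IRS2KO against WT and 8.3% for IRS1KO against IRS2KO. After TAC it also called 0 of the 10, against 4.7% of all genes for IRS1KO against WT, 0% for IRS2KO against WT and 2.36% for IRS1KO against IRS2KO. edgeR and DESeq2 on the recovered reads called 0 of the 10 in all 6. At an unadjusted p under 0.05 there were 0, 0, 2, 2, 0 and 1 of the 10 in that order, all lower in IRS1KO. Over all 13695 genes the same threshold was passed by 2203, 534, 2926, 2827, 931 and 1686, in the same order.

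Ppargc1a carried the widest differences between IRS2KO and the other sham hearts. IRS2KO sham libraries, from 2324 to 3502, were all above the WT sham libraries, from 1471 to 2157, and above the IRS1KO sham libraries, from 1169 to 1746. It was the 1 gene of the 10 whose IRS2KO sham libraries were wholly above WT, as were those of 0.438% of all tested genes. Ppargc1a and Perm1 were the 2 of the 10 whose IRS1KO sham libraries were wholly below IRS2KO, as were those of 4.72% of all. The log2 difference was 0.65 for IRS2KO against WT (SE 0.34, 95% interval -0.04 to 1.34, limma adjusted p = 1), -0.30 for IRS1KO against WT (SE 0.34, adjusted p = 0.74) and -0.95 for IRS1KO against IRS2KO (SE 0.34, 95% interval -1.64 to -0.26, adjusted p = 0.079). All 6 groups shared 1 estimate of the spread in this model, and Ppargc1a varied far more after TAC than in sham. Fitted on the 2 sham groups alone, the difference between IRS1KO and IRS2KO passed for Ppargc1a (limma adjusted p = 0.00012) and Perm1 (-0.25, adjusted p = 0.0028), and that between IRS1KO and WT passed for Perm1 (-0.20, adjusted p = 0.048). Such fits called more of all 13695 genes too. They called 922 higher and 1226 lower for IRS1KO against IRS2KO, and 665 higher and 818 lower for IRS1KO against WT. Perm1 was at 4116 ± 177 in IRS1KO, 4727 ± 425 in WT and 4889 ± 233 in IRS2KO sham hearts (SD, n = 6 each). Ppara was at 331 ± 97.3, 433 ± 60.0 and 480 ± 61.1 in the same order, and its log2 difference of -0.60 between IRS1KO and IRS2KO did not pass (SE 0.24, limma adjusted p = 0.14). Ppargc1b was at 264 ± 35.8 in WT, 277 ± 72.9 in IRS1KO and 253 ± 48.7 in IRS2KO sham hearts. For Esrra, Esrrb, Esrrg, Ppard, Tfam and Nrf1 the 3 sham means lay within 1281 to 1326, 512 to 534, 650 to 705, 343 to 359, 535 to 542 and 130 to 136 normalized counts.

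After TAC, Perm1 had the lowest mean in IRS1KO, 1869 ± 816 against 2935 ± 990 in WT and 2541 ± 1330 in IRS2KO. Its log2 difference from WT was -0.71 (SE 0.25, limma adjusted p = 0.099), and that of Tfam -0.28 (SE 0.11, adjusted p = 0.14). Without IRS1KO TAC replicate 5, the library highest in both genes, both passed (-0.88, limma adjusted p = 0.022, for Perm1 and -0.36, adjusted p = 0.029, for Tfam). Ppargc1a means after TAC were 1446 ± 719 in WT, 1208 ± 855 in IRS1KO and 1131 ± 754 in IRS2KO, so the order of the genotypes seen in sham hearts was not kept.

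The difference of the TAC response between genotypes was tested as an interaction and called for 0 of the 10 genes by limma, edgeR and DESeq2, against 0.11% of all genes for IRS1KO minus WT, 0% for IRS2KO minus WT and 0.409% for IRS1KO minus IRS2KO (limma). At an unadjusted p under 0.05 there was Ppargc1a alone, in 2 of the 3 differences. Its response was lower in IRS2KO than in WT by a log2 difference of -1.15 (SE 0.49, 95% interval -2.14 to -0.15, limma adjusted p = 0.90) and higher in IRS1KO than in IRS2KO by 1.04 (SE 0.48, 95% interval 0.07 to 2.01, adjusted p = 0.40). The 2 differences share the IRS2KO libraries. Of all 13695 genes, 713 passed the unadjusted threshold for IRS2KO minus WT and 1566 for IRS1KO minus IRS2KO. For Perm1 the response differed by -0.51 in IRS1KO against WT (SE 0.35, 95% interval -1.21 to 0.19, limma adjusted p = 0.67).

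Within the TAC groups most of the regulators varied together from library to library. With each group's mean removed, Pearson's r over the 17 TAC libraries was 0.98 for Perm1 and Esrrb (Spearman's rho 0.96, and r = 0.97 without the 2 libraries farthest from the median of Perm1), 0.94 for Perm1 and Tfam (rho 0.92), 0.92 for Ppargc1a and Ppara (rho 0.85) and 0.84 for Ppargc1a and Perm1 (rho 0.88). Over the 18 sham libraries the same pairs had r = 0.56, 0.37, 0.40 and 0.59. Ppargc1a and Ppargc1b had r = 0.33 in TAC and 0.28 in sham. In sham hearts its closest partners were Ppara at r = 0.79 and Esrrg at 0.68, which fell to 0.51 and 0.42 without the 2 farthest libraries, while Esrrg and Ppara stood at 0.88 and 0.76. Nrf1 ran against Perm1 (r = -0.69 in TAC and -0.51 in sham, or -0.52 and -0.23 without the 2 farthest libraries). These values are a description with no test: the libraries share their scaling, and cell markers vary over the same TAC libraries.

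**Figure D3:**
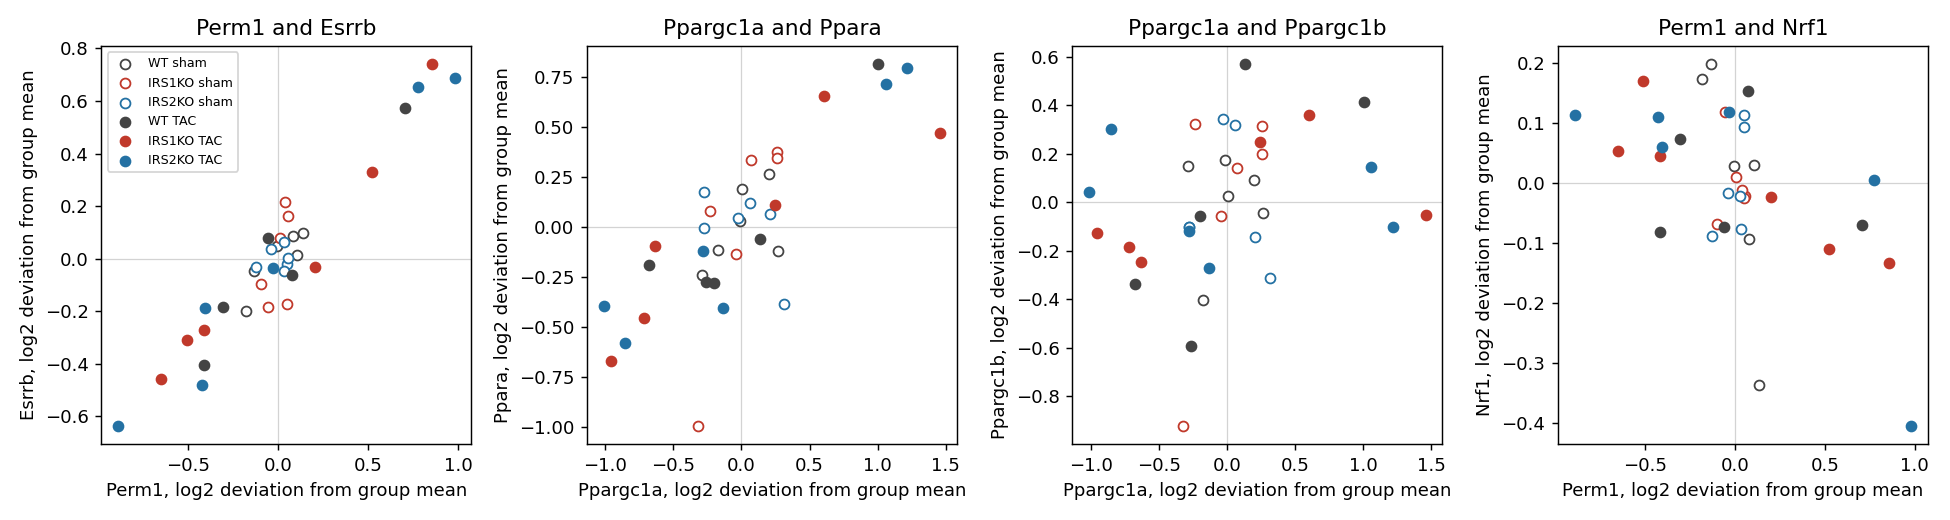
Log2 deviation of each library from its group mean for 4 pairs of regulators, named on the axes; open circles are sham libraries and filled circles TAC libraries, coloured by genotype. TAC libraries of all genotypes spread along a rising line for Perm1 with Esrrb (r = 0.98) and Ppargc1a with Ppara (0.92), a weaker one for Ppargc1a with Ppargc1b (0.33) and a falling one for Perm1 with Nrf1 (-0.69).

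Likeness to all other genes with a mean of at least 100 was measured the same way over the 35 libraries, as Pearson's r of deviations from group means across 9126 genes. Perm1 was nearest to Smyd1 (r = 0.98), the gene of a muscle histone methyltransferase, Fsd2 (0.98) and Stard7 (0.97). Tfam was nearest to Pdhb (0.95), a pyruvate dehydrogenase subunit, Dld (0.94), the dihydrolipoamide dehydrogenase shared by such complexes, and Myl2 (0.94), the ventricular myosin light chain. Esrrb was nearest to Abhd18, Fsd2 and Mcur1 (0.94 each), and Esrrg to Txlnb (0.94) and Ank2 (0.93). Esrra was nearest to Pex19 (0.91), Ndufa3 (0.90), a complex I subunit, and the predicted gene Gm10039 (0.90). Ppargc1a was nearest to Jmy (0.91), Gpr157 (0.90) and Tfdp2 (0.90). Ppara was nearest to Ralgapa1 (0.90), Vps13d and Sptbn1 (0.89 each), and Ppargc1b to Rai1 (0.83), Nav2 and Casz1 (0.78 each). Ppard and Nrf1 had no gene as near: their closest were Mypn at 0.63 and Plbd2 at 0.77.

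The wider circuit was read from 5 lists of partner and target genes. Each is given by its counts of limma calls, beside the shares of all genes given above (26.6% to 31.7% lower, 28.3% to 32.4% higher). List counts with libraries scaled to the same total stand instead beside the counts of all genes given above for that scaling. Of 32 coactivator partners and corepressors, 18 fell and 2 rose in WT, 17 fell and 4 rose in IRS1KO, and 20 fell and 3 rose in IRS2KO (median log2 fold change -0.27, -0.22 and -0.30, or -0.02, 0.09 and 0.04 with libraries scaled to the same total). Rxra, the gene of the retinoid X receptor that pairs with PPAR proteins, went from 896 ± 69.4 to 583 ± 61.5 in WT, from 899 ± 39.7 to 583 ± 66.9 in IRS1KO and from 893 ± 40.5 to 565 ± 83.6 in IRS2KO (limma adjusted p = 3.8e-07, 6.2e-08 and 3.2e-08). Rxrg, a second retinoid X receptor gene, had log2 fold changes of -1.16, -1.59 and -1.44. Hdac4, a corepressor of MEF2 factors, had -0.93 in WT and -0.77 in IRS2KO, and Mef2d itself -0.39 in WT. Sirt3, a mitochondrial deacetylase, had -0.85 in IRS1KO, and Klf15, a regulator of cardiac lipid use, -1.95 in IRS2KO. Nrip1, the gene of the corepressor RIP140, had -0.36, -0.23 and -0.51, and all of these passed. By group means Hdac4, Mef2d, Sirt3 and Klf15 were lower after TAC in all 3 genotypes. Pparg, the third PPAR gene, fell in IRS2KO (-1.02, limma adjusted p = 3.4e-06) and had values of -0.19 (adjusted p = 0.36) in WT and -0.36 (adjusted p = 0.050) in IRS1KO.

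Pprc1, the third member of the PGC-1 coactivator family, rose in all 3 genotypes. It went from 209 ± 9.36 to 325 ± 70.9 in WT, from 227 ± 18.1 to 365 ± 62.4 in IRS1KO and from 217 ± 27.6 to 379 ± 127 in IRS2KO (limma adjusted p = 0.0024, 0.00039 and 0.00011). Prkaa1, a catalytic subunit of AMP-activated kinase, rose in all 3 genotypes (log2 fold change 0.36, 0.33 and 0.32). Yy1, a transcription factor that binds PGC-1alpha, rose in IRS1KO (0.16). With libraries scaled to the same total 6 genes of this list fell and 5 rose in WT, 6 and 6 in IRS1KO and 7 and 8 in IRS2KO.

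Of 18 factors of mitochondrial DNA transcription and replication besides Tfam, 9 fell and 0 rose in WT, 13 fell and 1 rose in IRS1KO, and 14 fell and 1 rose in IRS2KO (median -0.26, -0.36 and -0.42). Twnk, the mitochondrial replicative helicase, had log2 fold changes of -0.76, -0.89 and -0.83. Polrmt, the mitochondrial RNA polymerase, had -0.41, -0.60 and -0.61, and Tfb2m, which opens mitochondrial promoters, -0.52, -0.49 and -0.69. These 3 passed in all 3 genotypes. Polg, the DNA polymerase, fell by 0.36 in WT and by 0.43 in IRS1KO, Mterf3 by 0.39 in WT, and Lrpprc, which stabilises mitochondrial messenger RNA, by 0.80 in both IRS1KO and IRS2KO. The group means of Polg, Mterf3 and Lrpprc were lower after TAC in all 3 genotypes. Tfb1m, a mitochondrial ribosomal RNA methyltransferase, had -0.36 in IRS1KO (limma adjusted p = 0.021), -0.23 in WT (adjusted p = 0.17) and -0.30 in IRS2KO (adjusted p = 0.060). The gene that rose was Nfe2l2, an antioxidant factor (0.44 in IRS1KO and 0.31 in IRS2KO). With libraries scaled to the same total 4 fell and 3 rose in WT, 7 and 2 in IRS1KO and 5 and 2 in IRS2KO.

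Of the 13 messenger RNAs of the mitochondrial genome, 12 fell in WT, 12 in IRS1KO and 13 in IRS2KO, and 0 rose (median -0.60, -0.88 and -0.86). The log2 fold changes of mt-Nd1 were -0.56, -0.85 and -0.78, and those of mt-Co1 -0.62, -0.88 and -0.90. Those of mt-Co3 were -0.60, -1.08 and -0.92, and those of mt-Nd3 -0.57, -0.91 and -0.85. The levels of these genes were far apart. In WT sham hearts mt-Co3 was at 3849 ± 310 and mt-Nd3 at 308 ± 25.8 normalized counts. There mt-Co1 was at 1645490 ± 76947 and mt-Nd1 at 535795 ± 27874. The cause of the unequal levels was not tested. Of all reads, the mitochondrial genome gave 29.9% ± 0.51 in sham hearts of WT and 23.4% ± 2.18 in their TAC hearts (SD). Under quantile normalization 5, 6 and 7 of the 13 fell, against 4512, 5058 and 4959 of all 13695 genes.

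Of 31 tested PPAR targets of fatty acid use (32 listed), 26 fell and 3 rose in WT, 28 fell and 2 rose in IRS1KO, and 28 fell and 2 rose in IRS2KO (median -0.95, -1.25 and -1.36). Slc27a1, a fatty acid transporter, went from 1908 ± 80.4 to 1008 ± 238 in WT, from 1938 ± 239 to 909 ± 115 in IRS1KO and from 1704 ± 169 to 915 ± 150 in IRS2KO (limma adjusted p = 6.6e-08, 9.0e-10 and 4.1e-08). Cpt1b, the muscle carnitine palmitoyltransferase that admits fatty acids to mitochondria, had log2 fold changes of -1.13, -1.31 and -1.26. Its level was low, 68.4 ± 23.1 normalized counts in WT sham hearts, against 10243 ± 516 for Acaa2. Cpt1b libraries ran from 40.3 to 107.7 in WT sham and from 14.3 to 60.6 in WT TAC hearts. Sham and TAC libraries overlapped in IRS1KO too, but not in IRS2KO. The cause of the low level was not tested. Acaa2, a thiolase of the last step of beta-oxidation, had log2 fold changes of -1.11, -1.57 and -1.50. Mlycd, malonyl-CoA decarboxylase, had -1.69 in IRS1KO, and Ehhadh, a peroxisomal enzyme, -1.98 in IRS2KO, and both passed. Both genes had lower group means after TAC in all 3 genotypes. Angptl4, an inhibitor of lipoprotein lipase, and Ucp2, a mitochondrial carrier, rose in all 3 genotypes. The log2 fold changes were 1.76, 1.08 and 0.80 for Angptl4 and 0.89, 1.09 and 0.43 for Ucp2. Plin2, a lipid droplet coat protein, rose in WT (0.66).

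Pdk4, the kinase that shuts pyruvate dehydrogenase and a target of both PPAR and ERR proteins, had its highest mean in IRS2KO sham hearts, as Ppargc1a did. It went from 22116 ± 7277 to 18425 ± 7382 in WT, from 14640 ± 3604 to 9079 ± 7472 in IRS1KO and from 32820 ± 5530 to 5759 ± 2298 in IRS2KO (SD). The log2 fold change was -0.33 in WT (SE 0.39, limma adjusted p = 0.50), -1.04 in IRS1KO (SE 0.38, adjusted p = 0.017) and -2.58 in IRS2KO (SE 0.38, adjusted p = 8.7e-07). Ucp3, a mitochondrial carrier of muscle, went from 1896 ± 414 to 824 ± 377, from 1395 ± 278 to 322 ± 298 and from 2077 ± 158 to 381 ± 363 in the same order (log2 fold change -1.28, -2.61 and -3.06, limma adjusted p = 0.040, 4.2e-05 and 5.4e-06).

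Of 36 ERR targets of oxidative metabolism, 33 fell in WT, 36 in IRS1KO and 36 in IRS2KO, and 0 rose (median -0.61, -0.93 and -0.88). Cox7a1, the muscle form of a complex IV subunit, went from 6760 ± 699 to 3523 ± 1007 in WT, from 6737 ± 1222 to 2309 ± 652 in IRS1KO and from 6726 ± 444 to 2714 ± 1284 in IRS2KO. Its log2 fold changes of -0.99, -1.57 and -1.43 passed (limma adjusted p = 0.00038, 1.6e-07 and 8.2e-07). Mfn2, a mitochondrial fusion protein, had -0.53 and Sdha, a complex II subunit, -0.76 in WT. Cox4i1, of complex IV, had -1.01 and Idh3g, of the tricarboxylic acid cycle, -0.92 in IRS1KO. Sucla2, of the same cycle, had -1.12 and Ndufs1, of complex I, -1.07 in IRS2KO, and these 6 passed. With libraries scaled to the same total 27, 35 and 34 of the 36 were called lower, and 24, 26 and 27 of the 31 PPAR targets. Under that scaling 1583, 2164 and 1890 of all 13695 genes were called lower.

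**Figure D4:**
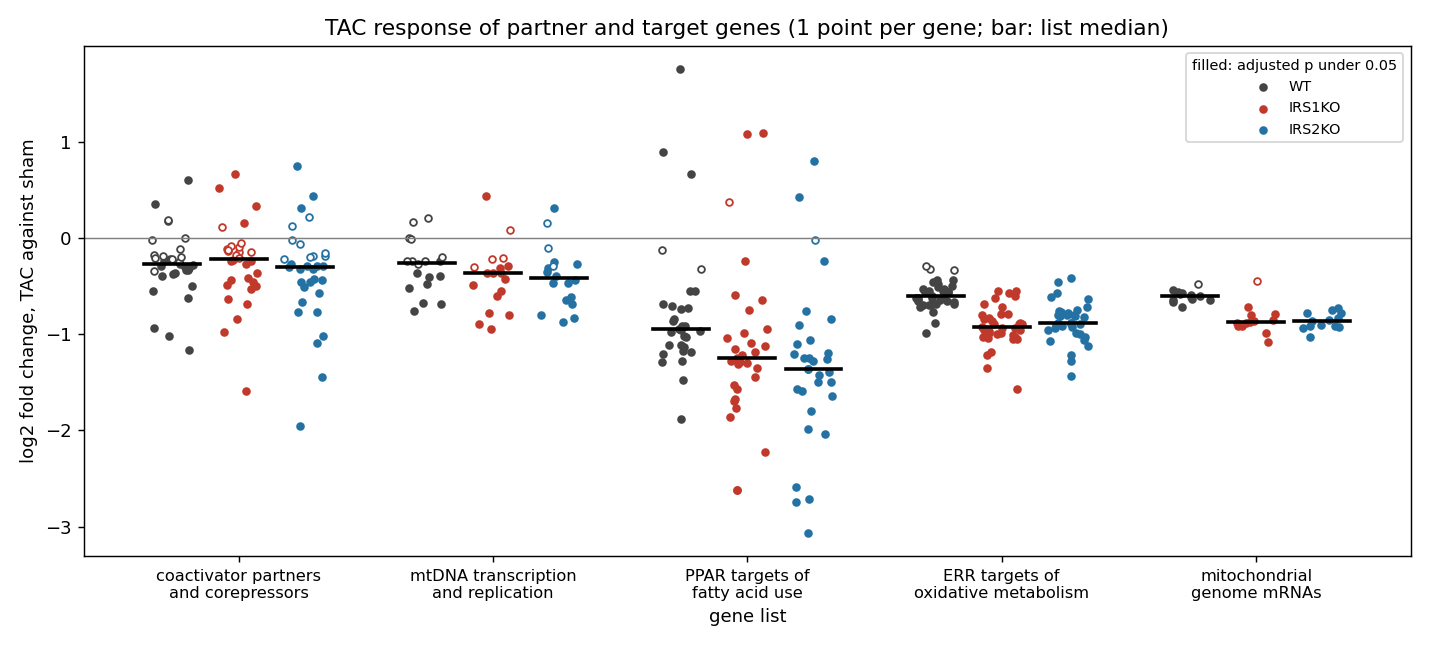
Log2 fold change, TAC against sham (vertical axis), of every tested gene of the 5 lists, 1 point per gene and colour per genotype; filled points passed the adjusted threshold of 0.05 and bars are list medians. The PPAR targets have the lowest medians (-0.95, -1.25 and -1.36 in WT, IRS1KO and IRS2KO) and the widest spread, and the ERR targets lie almost all below 0.

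Few of the 130 tested genes of these lists were called between genotypes. In sham hearts 2 were called between IRS1KO and WT (1.54%, against 4.65% of all genes) and 6 between IRS1KO and IRS2KO (4.62% against 8.3%). After TAC 12 were called between IRS1KO and WT (9.23% against 4.7%) and 1 between IRS1KO and IRS2KO (0.769% against 2.36%). In sham hearts Mterf3 (log2 difference -0.27) and Hdac3 (-0.23), a corepressor deacetylase, were lower in IRS1KO than in WT (limma adjusted p = 0.036 and 0.044). The 6 genes called between IRS1KO and IRS2KO sham hearts were all lower in IRS1KO, among them Lpin1, a coactivator of PPARalpha with PGC-1alpha (-1.01, limma adjusted p = 0.0045), Pdk4 (-1.19, 0.043), Nr2f1 (-0.59, 0.032), Nrip1 (-0.31, 0.044) and Hdac3 (-0.21, 0.044). The 12 genes called between IRS1KO and WT after TAC were all lower in IRS1KO, and 7 of them were among the 31 tested PPAR targets. These PPAR targets included Plin5, a lipid droplet protein (-1.25, limma adjusted p = 0.019), and Acaa2 (-0.77, 0.028), and Lpin1 (-1.05, 0.0079) and Sucla2 (-0.69, 0.012) led their lists. Lpin1 was at 2884 ± 279 in WT, 1765 ± 153 in IRS1KO and 3546 ± 251 in IRS2KO sham hearts (SD, n = 6 each), and at 2396 ± 983, 1145 ± 378 and 1874 ± 1001 after TAC. Ucp2 was higher in IRS1KO than in IRS2KO TAC hearts (0.72, limma adjusted p = 0.013), and no gene of the lists was called between IRS2KO and WT, where limma called 0% of all genes.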

How the data were processed

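Stranded mRNA libraries were made from total RNA of the heart apex, per the labels' protocols. The deposited values are a signal, normalized counts per gene and library; per the submitters' processing notes, the tools HISAT2 2.0.6, HTSeq 0.7.1 and DESeq2 and the genome GRCm38 were used in some role. The sources used here do not name an annotation version. In each library 100% of values were whole multiples of 1 step within 0.001, so whole reads were recovered (11707111 to 14609467 per library). Symbols and exon lengths came from GENCODE vM21, which named 26886 of 27012 genes, and promoters from RefSeq.

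Groups were taken from the sample labels. limma (3.58.1 in R 4.3.3, trend and robust) was fitted to log2(value + 1) of the 13695 genes with a mean of at least 10, with 1 mean per group and 12 contrasts. Tests were two-sided, with Benjamini-Hochberg adjustment over all genes of a contrast. A fold change is on that log2 scale, which understates changes of low genes; folds in words are ratios of group means. The scripts were tested on simulated data. Alternatives were a pseudocount of 0.5 or 5, a minimum mean of 50 or none, equal library totals, quantile normalization, fits to a contrast's groups alone, weights per library, a block for the replicate number, tests of the recovered reads (edgeR 4.0.16, DESeq2 1.42.0), and leaving out each library. Leaving out the TAC library nearest to sham in each genotype was added after seeing the data. On the recovered reads edgeR called 3957 genes higher and 3510 lower in WT, 4299 and 4577 in IRS1KO and 4387 and 4148 in IRS2KO for TAC against sham.

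The 10 genes and the lists were chosen with earlier results of these data known. Genes outside the 10 were named by a rule: the 3 members of each list with the smallest adjusted p in each TAC contrast, up to 3 called ones in each genotype contrast, 12 fixed partner and target genes, Irs1 and Irs2, and for each of the 10 the 3 genes of highest likeness. Outside that rule, Prkaa1, Yy1, Nfe2l2, Angptl4 and Plin2, list genes called higher after TAC, and the cell markers Actc1 and Dcn were named after their values were seen. A few genes the rule names are not reported here.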

Additional observations from a re-analysis of the deposited data

Results flagged for a closer look

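Single libraries stood apart from the rest of their group for 5 of the 60 combinations of gene and group, where chance alone gives about 1 in 20. Ppara in WT TAC replicate 2 was at 473 normalized counts, with the other 4 libraries between 221 and 257. Ppara in IRS2KO sham replicate 1 was at 364, below the others at 474 to 538, and Esrrg in the same library was at 555, below 653 to 696. Ppard in IRS2KO TAC replicate 3 was at 299.8, below 341 to 356. Nrf1 in IRS2KO TAC replicate 4 was at 111, below 148 to 160.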

How the results depend on the processing

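Each of the 120 log2 fold changes (10 genes in 12 contrasts) was recomputed under up to 47 settings, 35 of them leaving out 1 library, giving 3190 values. Of these 3140 kept their side of the threshold, 35 newly passed it, 12 no longer passed and 3 reversed; 158 values of results that pass under neither setting changed sign, in 42 results. With the same total per library, 3 genes were called lower in WT and 4 in IRS2KO, 2 were called higher in each genotype, and Ppard reversed to 0.24, 0.20 and 0.25 in WT, IRS1KO and IRS2KO; these shifts come with the move of the median of all genes under that scaling. Fits on only the groups in the contrast called 1 gene lower for IRS1KO against WT in sham and 2 for IRS1KO against IRS2KO in sham, against 818 and 1226 of all 13695 genes. Library weights called 9 genes lower and 1 higher after TAC in IRS1KO, and 1 higher after TAC in IRS2KO (Nrf1). They also called 2 lower for IRS1KO against IRS2KO in sham and 2 lower for IRS1KO against WT in TAC, against 1409 and 1371 of all 13695 genes. The cause was not tested. Without the TAC libraries nearest to sham, 1 gene was called higher after TAC in IRS2KO, 1 lower for IRS1KO against IRS2KO in sham (Ppargc1a, limma adjusted p = 0.0499) and 2 lower for IRS1KO against WT in TAC. Leaving out 1 library gave 4 to 7 genes lower in WT, 5 to 7 in IRS1KO and 7 in IRS2KO each time, 0 to 1 higher in IRS2KO, and 0 to 2 lower for IRS1KO against WT in TAC. edgeR called 1 gene higher after TAC in IRS2KO (Nrf1), and no filter lost Ppara in WT (limma adjusted p = 0.051) while quantile normalization added Ppargc1b in WT (adjusted p = 0.032).

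Same-numbered replicates deviated together weakly at most. Of 17 pairs of sham and TAC libraries of a genotype with the same number, 8 had a correlation of deviations above 0.1 (lowest -0.08, median 0.08, highest 0.21). The numbers were not taken as pairs. Libraries of the same number in different genotypes were not compared. A replicate block called 1 gene higher after TAC in IRS2KO (Nrf1, 0.18, limma adjusted p = 0.049) and changed no other call of the 10 genes. Over all 13695 genes the block raised the calls for IRS1KO against WT in TAC from 276 higher and 367 lower to 390 and 545. The log2 differences of Ppargc1a had an SE of 0.34 or more, with at least 562 reads of the gene in every library.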
